A study of Homo sapiens with 18 samples.

Results

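The Rab genes encode the Rab GTPases, the largest family of small GTPases. Members were all genes whose single symbol in the annotation of the array is RAB followed by a digit and at most 3 more letters or digits, which leaves out exchange factors and interacting proteins with Rab-like names. The rule uses names only and no measured value. It gave 58 genes, measured by 594 probe sets, of the 16267 genes that had a value in these data. A Rab gene had 4 to 21 probe sets, with a median of 9. RefSeq lists 56 of the 58 as protein coding. RAB9BP1 is a pseudogene, and the symbol RAB39 was kept as the array gives it, because RefSeq holds it as an older name of more than 1 gene.

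A Rab protein switches between a GTP-bound and a GDP-bound form. Exchange factors load it with GTP at a given membrane, where it recruits effectors such as tethers and motors, GTPase activating proteins end the signal, and GDI and escort proteins carry the prenylated protein through the cytosol. Each Rab marks its own compartments, among them early and recycling endosomes, phagosomes, the Golgi and secretory granules, and in myeloid cells Rabs act in phagosome maturation and in the release of granules. The messenger level measured here is not the amount of GTP-bound protein.

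RNA of 3 human myeloid lines was hybridised to Affymetrix human exon arrays: HL60, a promyelocytic leukaemia line, THP-1, a monocytic leukaemia line, and U937, from a histiocytic lymphoma. Each line was treated for 3 days with phorbol 12-myristate 13-acetate (PMA) at 30 nM, a phorbol ester that activates protein kinase C, or with the vehicle DMSO diluted 1000 fold. There were thus 6 groups (HL60 with DMSO, HL60 with PMA, THP-1 with DMSO, THP-1 with PMA, U937 with DMSO and U937 with PMA) of 3 arrays each. The labels do not say whether the 3 came from separate cultures, so the p-values rest on the spread among these arrays, which may be technical. Values are log2 intensities, a gene value is the mean of its probe sets, and ± gives the SD over 3 arrays. A gene was called when its two-sided p from limma, with Benjamini-Hochberg adjustment across the 16267 genes, was under 0.05. Rose and fell are used only of called genes. For other genes the log2 difference (PMA minus DMSO) is given.

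Array medians ran from 6.18 to 6.95. The U937 arrays numbered 2 (DMSO and PMA) stood apart. They shared at most 5 tied values with any other array, against 39 to 116 between other arrays of the same line and at most 7 between lines, and the U937 PMA 2 array had the lowest median and 83228 distinct values, where every other array had 214471 to 220516. Levels of different lines were not tested against each other. Of 10 myeloid marker genes 9 were measured, and 8 or 9 of them lay above 5.17, the 30th percentile of all probe sets, in every group. The mean of 6 T and NK cell markers lay between 4.15 and 4.95 on every array. All 3 measured B cell markers (array means 5.20 to 6.26), 2 or 3 of 4 erythroid markers and 4 of 6 epithelial and fibroblast markers (array means 5.19 to 5.71) lay above 5.17 in every group, and their part in the results was not tested. Rescaling the arrays moved the median change of all genes in U937 from -0.07 as deposited to 0.12 with quantile normalization and 0.17 with arrays centred on their medians, so the split between higher and lower calls in that line depends on the scaling.

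The bases before the start are shown for the 4 Rab genes called in the same direction in every line (RAB4B, RAB31, RAB43 and RAB27A), and for RAB13 and RAB27B. These last are each shown at the 1 of their 2 starts whose window holds an AP-1 site, the element that phorbol esters are known to act through. They were picked with their calls known, and a link between the site and the response to PMA was not tested. Each sequence is the 250 bases before an annotated RefSeq start in GRCh38.p14, read 5′ to 3′ on the strand of the gene, at chr19:40777997-40778246 (plus strand) for RAB4B, chr18:9708051-9708300 (plus) for RAB31, chr3:129121923-129122172 (minus) for RAB43, chr15:55319124-55319373 (minus) for RAB27A, chr1:153985394-153985643 (minus) for RAB13 and chr18:54828227-54828476 (plus) for RAB27B. RAB43 has 4 listed starts, RAB27A 5, RAB13 and RAB27B 2 each. Capitals mark an AP-1 site (TGACTCA or its reverse complement TGAGTCA) or an E-box (CACGTG, the core of sites for lysosomal genes), searched on both strands.
RAB4B: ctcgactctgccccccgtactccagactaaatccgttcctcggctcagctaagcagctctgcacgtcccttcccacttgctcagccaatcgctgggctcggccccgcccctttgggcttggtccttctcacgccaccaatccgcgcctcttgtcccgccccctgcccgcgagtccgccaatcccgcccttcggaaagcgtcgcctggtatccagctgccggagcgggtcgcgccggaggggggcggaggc
RAB31: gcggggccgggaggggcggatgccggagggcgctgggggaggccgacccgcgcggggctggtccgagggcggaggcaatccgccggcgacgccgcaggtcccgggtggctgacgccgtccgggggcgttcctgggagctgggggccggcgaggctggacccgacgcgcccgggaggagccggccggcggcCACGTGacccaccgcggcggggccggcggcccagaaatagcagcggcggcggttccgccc
RAB43: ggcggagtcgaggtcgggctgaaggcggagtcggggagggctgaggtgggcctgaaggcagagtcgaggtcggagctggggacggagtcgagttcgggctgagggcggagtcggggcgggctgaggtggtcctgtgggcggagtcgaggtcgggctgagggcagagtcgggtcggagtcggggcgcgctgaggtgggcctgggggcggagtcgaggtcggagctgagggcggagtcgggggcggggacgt
RAB27A: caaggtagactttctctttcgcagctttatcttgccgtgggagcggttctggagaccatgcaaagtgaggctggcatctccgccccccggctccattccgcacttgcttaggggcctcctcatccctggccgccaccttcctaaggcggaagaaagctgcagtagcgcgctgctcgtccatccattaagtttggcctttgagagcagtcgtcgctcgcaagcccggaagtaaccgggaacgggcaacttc
RAB13: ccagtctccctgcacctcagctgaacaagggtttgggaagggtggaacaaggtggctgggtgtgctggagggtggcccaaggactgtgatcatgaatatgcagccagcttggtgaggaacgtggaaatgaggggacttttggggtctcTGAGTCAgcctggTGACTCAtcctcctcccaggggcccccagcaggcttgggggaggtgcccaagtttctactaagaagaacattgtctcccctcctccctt
RAB27B: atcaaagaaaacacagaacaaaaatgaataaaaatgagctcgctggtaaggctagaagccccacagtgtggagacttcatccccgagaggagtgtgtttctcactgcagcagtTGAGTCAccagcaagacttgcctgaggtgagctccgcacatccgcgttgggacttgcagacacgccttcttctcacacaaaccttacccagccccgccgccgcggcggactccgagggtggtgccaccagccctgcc
The RAB13 window holds 2 AP-1 sites, which begin 102 and 89 bases before the start, and the RAB27B window holds 1, which begins 137 bases before it. The RAB31 window holds an E-box 60 bases before the start. RefSeq promoter entries were matched for 45 of the 58 Rab genes, with 65 windows. An AP-1 site was in 5 of the 65 (7.69%), against 4.2% of all 35116 windows, and the genes were RAB3B, RAB5B, RAB13, RAB27B and RAB34, with 1 window each. RAB3B, RAB5B and RAB34 were called in no line with the values as deposited, and their windows are not shown. An E-box was likewise in 5 of the 65 (7.69%), against 6.34% of all windows, in RAB4A, RAB5A, RAB21, RAB24 and RAB31. A match describes letters in a window and no binding was measured.

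PMA moved a minority of the family in each line. In HL60, 15 of the 58 Rab genes were called, 12 higher and 3 lower, which is 25.9% against 23% of all genes (12.3% higher and 10.7% lower). In THP-1, 9 were called, 6 higher and 3 lower, which is 15.5% against 22.5% of all genes (9.37% higher and 13.2% lower). In U937, 10 were called, 4 higher and 6 lower, which is 17.2% against 22% of all genes (5.5% higher and 16.5% lower). The PMA arrays did not overlap the DMSO arrays for 23 Rab genes in HL60 (39.7%, against 46.1% of all genes), 24 in THP-1 (41.4%, against 43%) and 10 in U937 (17.2%, against 25.4%). The median Rab difference was 0.31 in HL60 beside 0.13 over all genes, 0.13 beside 0.04 in THP-1, and -0.04 beside -0.07 in U937, where it was 0.17 with quantile normalization and 0.20 with centred arrays. In U937 the split of called Rab genes became 9 higher and 6 lower under either rescaling, in THP-1 it became 10 and 3 or 11 and 3, and in HL60 15 and 4 or 13 and 4. Over all 16267 genes the rescalings, quantile first, gave 2153 higher and 2305 lower or 2350 and 2317 in U937. They gave 2619 and 2611 or 2730 and 2547 in THP-1, and 2585 and 2406 or 2417 and 2429 in HL60. With the replicate number as a block, 25 Rab genes were called in HL60 (19 higher and 6 lower, 43.1% against 34.3% of all genes), 15 in THP-1 (9 and 6, 25.9% against 34.7%) and 14 in U937 (4 and 10, 24.1% against 33.2%).

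Of the 58 Rab genes, 22 were called in at least 1 line (39.3% of all genes were), 14 of them in a single line, 4 in 2 lines and 4 in all 3. RAB4B, RAB31 and RAB43 rose in all 3 lines and RAB27A fell in all 3, which is 4 of 58 beside 8.59% of all genes (2.66% higher and 5.93% lower). RAB27B was the only Rab gene called in opposite directions, higher in THP-1 and lower in U937, as were 0.947% of all genes. The difference was positive in every line for 23 Rab genes (39.7%, against 29.7% of all genes) and negative in every line for 8 (13.8%, against 26.9%).

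**Figure D1:**
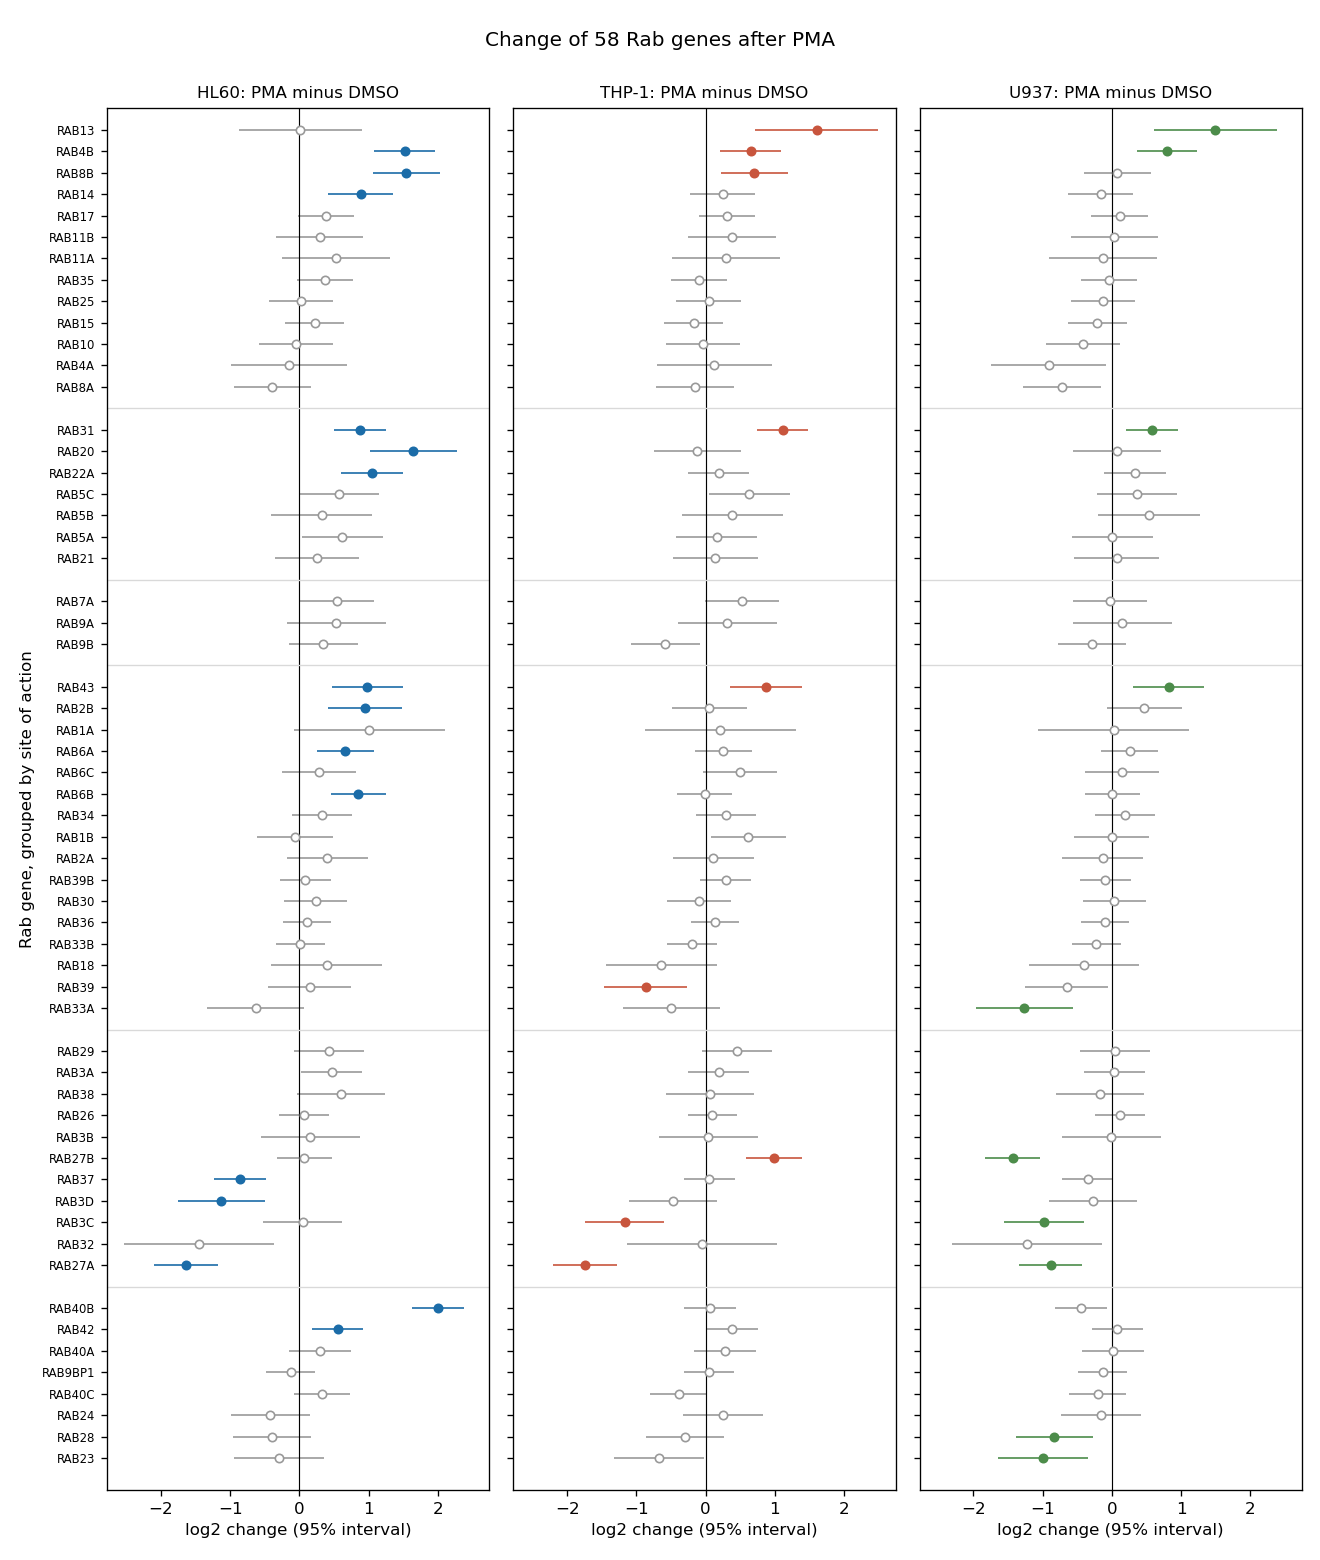
Log2 change (PMA minus DMSO) with its 95% interval for 58 Rab genes, in 1 panel per line; rows are grouped from top to bottom as recycling and plasma membrane, early endosome, late endosome, Golgi and endoplasmic reticulum, secretion, and other. Filled points are called (15 in HL60, 9 in THP-1, 10 in U937); RAB4B, RAB31, RAB43 and RAB27A are filled in every panel.

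Among the 13 Rabs of recycling endosomes and plasma membrane traffic, PMA raised 3 in HL60, 3 in THP-1 and 2 in U937, and lowered 0 in these lines by limma (with the replicate block, 2 also fell in U937). That is 23.1%, 23.1% and 15.4% called, against 23%, 22.5% and 22% of all genes. RAB4B, which acts in the rapid return of receptors from endosomes, rose in all 3. In HL60 its values were 7.19, 7.01 and 6.96 with DMSO and 8.70, 8.70 and 8.34 with PMA. They were 7.24, 7.22 and 7.19 against 8.04, 8.07 and 7.50 in THP-1, and 7.53, 7.41 and 7.25 against 8.35, 7.71 and 8.52 in U937. Every PMA array lay above every DMSO array of its line. The change was 1.52 ± 0.21 (SE) in HL60, or 2.87 fold (adjusted p from limma 2.32e-05), 0.65 in THP-1 (adjusted p 0.0299) and 0.79 in U937 (adjusted p 0.00956). A pair of probe sets shared by RAB4B and its neighbour MIA, left out of the gene value, differed by 2.50, 0.95 and 1.34 (HL60, THP-1 and U937). The THP-1 call of RAB4B was lost without DMSO array 1, 2 or 3 or PMA array 1 or 2 (adjusted p 0.0675 to 0.125), and the U937 call with the arrays of that line alone (adjusted p 0.0818) or the median of the probe sets (0.0507).

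RAB13, a Rab of cell junctions and of traffic to the plasma membrane, rose in THP-1 and U937. THP-1 values were 9.17, 9.11 and 8.25 with DMSO and 10.96, 10.89 and 9.50 with PMA. U937 values were 8.19, 7.93 and 6.67 with DMSO and 9.77, 8.83 and 8.68 with PMA. In both lines array 3 was the lowest within its group, and the groups did not overlap. HL60 values of 4.76, 5.01 and 4.32 with DMSO and 4.66, 4.57 and 4.89 with PMA were low and overlapped. The change was 1.61 ± 0.42 (SE), or 3.04 fold, in THP-1 (adjusted p 0.00958) and 1.49 ± 0.42, or 2.82 fold, in U937 (adjusted p 0.0155), and all 4 probe sets were higher by at least 1 log2 unit in both lines. Without THP-1 PMA array 1 the THP-1 adjusted p was 0.0591, and without U937 DMSO array 3 or PMA array 1 the U937 value was 0.0886 to 0.0939.

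RAB8B, which carries cargo to the cell surface, rose in HL60 and THP-1. HL60 values were 6.24, 6.15 and 6.09 with DMSO and 7.87, 7.89 and 7.35 with PMA, a change of 1.55 ± 0.23 (SE), or 2.92 fold (adjusted p 5.9e-05). THP-1 values were 6.32, 6.57 and 6.45 against 7.03, 7.48 and 6.95, a change of 0.71 (adjusted p 0.0342). In U937 the DMSO values were 8.15, 8.05 and 8.31 and the PMA values 8.52, 7.65 and 8.58, which overlapped. The THP-1 call was lost without any of its 3 DMSO arrays or without PMA array 1 or 2 (adjusted p 0.058 to 0.157) and with the median of the probe sets (0.0694). RAB14, which acts between the Golgi and endosomes, rose in HL60 by 0.89 (adjusted p 0.00624), where every PMA array (9.72 to 9.83) lay above every DMSO array (8.73 to 8.98). The other 9 genes of the group, RAB4A, RAB8A, RAB10, RAB11A, RAB11B, RAB15, RAB17, RAB25 and RAB35, were called in no line, with differences from -0.91 (RAB4A in U937, adjusted p 0.121) to 0.53 (RAB11A in HL60, adjusted p 0.361). With the replicate block the adjusted p was 0.00457 for RAB4A in U937, 0.00634 for RAB8A in U937 (difference -0.72) and 0.0198 for RAB11A in HL60. RAB35 in HL60 (0.37) was called under both rescalings (0.0083 and 0.0408).

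Of the 7 early endosome and phagosome Rabs, 3 rose in HL60, 1 in THP-1 and 1 in U937, which is 42.9%, 14.3% and 14.3% against 23%, 22.5% and 22% of all genes. All 7 had a positive difference in HL60 and in U937, as had 10261 and 6653 of all 16267 genes. The smallest of the 7 was 0.26 in HL60 and 0.0042 in U937. RAB31, which acts between the Golgi and endosomes and on phagosomes, rose in all 3 lines. Its HL60 values were 8.69, 8.55 and 8.53 with DMSO and 9.46, 9.57 and 9.36 with PMA. THP-1 values were 9.10, 9.21 and 9.14 against 10.27, 10.41 and 10.12, and U937 values were 8.28, 8.29 and 8.27 against 8.91, 8.43 and 9.23. In each line all PMA arrays were higher than all DMSO arrays. The change was 0.88 in HL60 (adjusted p 0.00104), 1.11 ± 0.18 (SE), or 2.17 fold, in THP-1 (adjusted p 0.000145) and 0.58 in U937 (adjusted p 0.0241). The U937 call was lost without any of its DMSO arrays or without PMA array 1 or 3 (adjusted p 0.0582 to 0.101), and with the median of the probe sets the adjusted p was 0.0761 in HL60 and 0.0952 in U937, where it was 0.281 with the arrays of that line alone.

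RAB20, a Rab of phagosome maturation, rose in HL60 alone among the calls. HL60 values were 6.17, 5.83 and 5.93 with DMSO and 8.20, 7.59 and 7.09 with PMA, without overlap, a change of 1.65 ± 0.30 (SE), or 3.14 fold (adjusted p 0.000428). In THP-1 the values were 5.92, 6.005 and 5.46 with DMSO and 5.69, 5.56 and 5.78 with PMA. In U937 they were 8.84, 8.95 and 7.77 with DMSO and 8.95, 8.45 and 8.40 with PMA. The groups of both lines overlapped. RAB22A, which acts in endosome sorting, rose in HL60 from 7.90, 7.96 and 7.86 to 8.76, 9.05 and 9.07, a change of 1.05 ± 0.21 (SE), or 2.07 fold (adjusted p 0.0011). Its values were 8.09, 8.24 and 8.19 with DMSO and 8.30, 8.37 and 8.42 with PMA in THP-1, and 8.43, 8.34 and 8.37 with DMSO and 8.83, 8.09 and 9.24 with PMA in U937. The U937 difference was 0.34 (adjusted p 0.331), where both rescalings called it (0.59 and 0.58), as did the fit without both U937 arrays numbered 2 (0.64, adjusted p 0.00862). RAB5A, RAB5B, RAB5C and RAB21, the Rabs that start endosome fusion and uptake, had differences of 0.00 to 0.63 in the 3 lines and were not called. With the replicate block RAB5C had an adjusted p of 0.0126 in HL60 and 0.00724 in THP-1, and RAB5A 0.0203 in HL60. In U937 RAB5B (0.53) was called under both rescalings (0.0476 and 0.0481).

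The 3 late endosome Rabs had 0 calls by limma in each line (0%, against 23%, 22.5% and 22% of all genes). At an unadjusted p under 0.05 there was 1 in HL60, 1 in THP-1 and 0 in U937, beside 5150, 5272 and 4929 of all 16267 genes. RAB7A, the main Rab of late endosomes and lysosomes, differed by 0.55 in HL60 (adjusted p 0.15), 0.52 in THP-1 (0.166) and -0.03 in U937 (0.981). Its PMA arrays lay above its DMSO arrays in HL60 (10.57 to 10.76 against 9.99 to 10.29) and in THP-1 (10.44 to 10.79 against 9.85 to 10.18), and it was called in both under quantile normalization (0.0299 and 0.0208) and with centred arrays (0.0374 and 0.0117). RAB9A, of transport from late endosomes to the Golgi, differed by 0.53, 0.32 and 0.15, and RAB9B by 0.35, -0.58 and -0.29. The block called RAB9A in HL60 (adjusted p 0.0252) and RAB9B in THP-1 (0.0365).

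Golgi, endoplasmic reticulum and autophagosome Rabs numbered 16 as grouped here, where RAB24 was placed in the remaining group. Of the 16, 4 rose in HL60, 1 rose and 1 fell in THP-1, and 1 rose and 1 fell in U937. That is 25%, 12.5% and 12.5% called, against 23%, 22.5% and 22% of all genes. RAB43, which acts at the Golgi and in phagosome maturation, rose in all 3 lines. HL60 values were 6.79, 7.19 and 7.11 with DMSO and 7.77, 8.23 and 8.04 with PMA. THP-1 values were 6.76, 6.99 and 6.94 against 7.84, 7.46 and 8.001, and U937 values 7.06, 6.68 and 7.15 against 7.70, 7.26 and 8.38. No PMA array lay below a DMSO array of its line. The change was 0.98 in HL60 (adjusted p 0.00606), 0.87 in THP-1 (0.0147) and 0.82 in U937 (0.0217), with all 8 probe sets positive in each line. The THP-1 call was lost without DMSO array 1, PMA array 1 or PMA array 3 (adjusted p 0.0542 to 0.0643) and the U937 call without DMSO array 2 or PMA array 3 (0.106 to 0.107) or with the arrays of that line alone (0.0691). The 12 probe sets shared by RAB43 and its neighbour ISY1 did not enter the gene value and differed by -0.39, 0.03 and -0.63, with overlapping groups in each line.

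RAB33A, a Golgi Rab found in blood cells and neurons, fell in U937. U937 values were 8.58, 8.12 and 7.38 with DMSO and 6.94, 6.71 and 6.63 with PMA, without overlap, a change of -1.27 ± 0.33 (SE), or 2.4 fold lower (adjusted p 0.00965). In HL60 the values were 6.67, 5.93 and 6.05 against 5.80, 5.56 and 5.41, and in THP-1 6.79, 6.66 and 5.89 against 6.53, 6.03 and 5.29, with differences of -0.63 and -0.49 that were not called (adjusted p 0.0138 and 0.0464 with the replicate block). Without U937 DMSO array 1 the U937 adjusted p was 0.0695, and without both U937 arrays numbered 2 it was 0.0862. In HL60 RAB2B, of the Golgi, rose by 0.95 (adjusted p 0.0103, and 0.0551 without DMSO array 3). RAB6A and RAB6B, which act in retrograde transport, rose there by 0.67 (adjusted p 0.018) and 0.85 (0.00244). The RAB6A call was lost without DMSO array 2 or 3 or PMA array 1 or 2 (adjusted p 0.0514 to 0.0628). RAB6A shares 14 probe sets with RAB6C, its near-identical copy, so values of the pair are uncertain, and those probe sets differed by 0.74, 0.15 and 0.40. RAB39 fell in THP-1 by 0.86 (adjusted p 0.0363), a call lost without any of the 3 DMSO arrays or without PMA array 1 or 2 (0.056 to 0.16) and with the median of the probe sets (0.153). Only 1 of the 5 RAB39 probe sets lay above the 30th percentile, so the fit with such probe sets left it out. RAB1A, of transport from the endoplasmic reticulum to the Golgi, had values of 9.87, 9.08 and 8.54 with DMSO and 11.15, 9.77 and 9.61 with PMA in HL60, where the groups overlapped. The difference of 1.01 had an adjusted p of 0.192, or 0.00175 with the replicate block. The block also called RAB18 (-0.64, 0.0191), RAB1B (0.62, 0.0193) and RAB6C (0.49, 0.0492) in THP-1 and RAB39 (-0.65, 0.00882) in U937. Both rescalings called RAB1B in THP-1, RAB2B in U937, and RAB6A in THP-1 and U937.

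**Figure D2:**
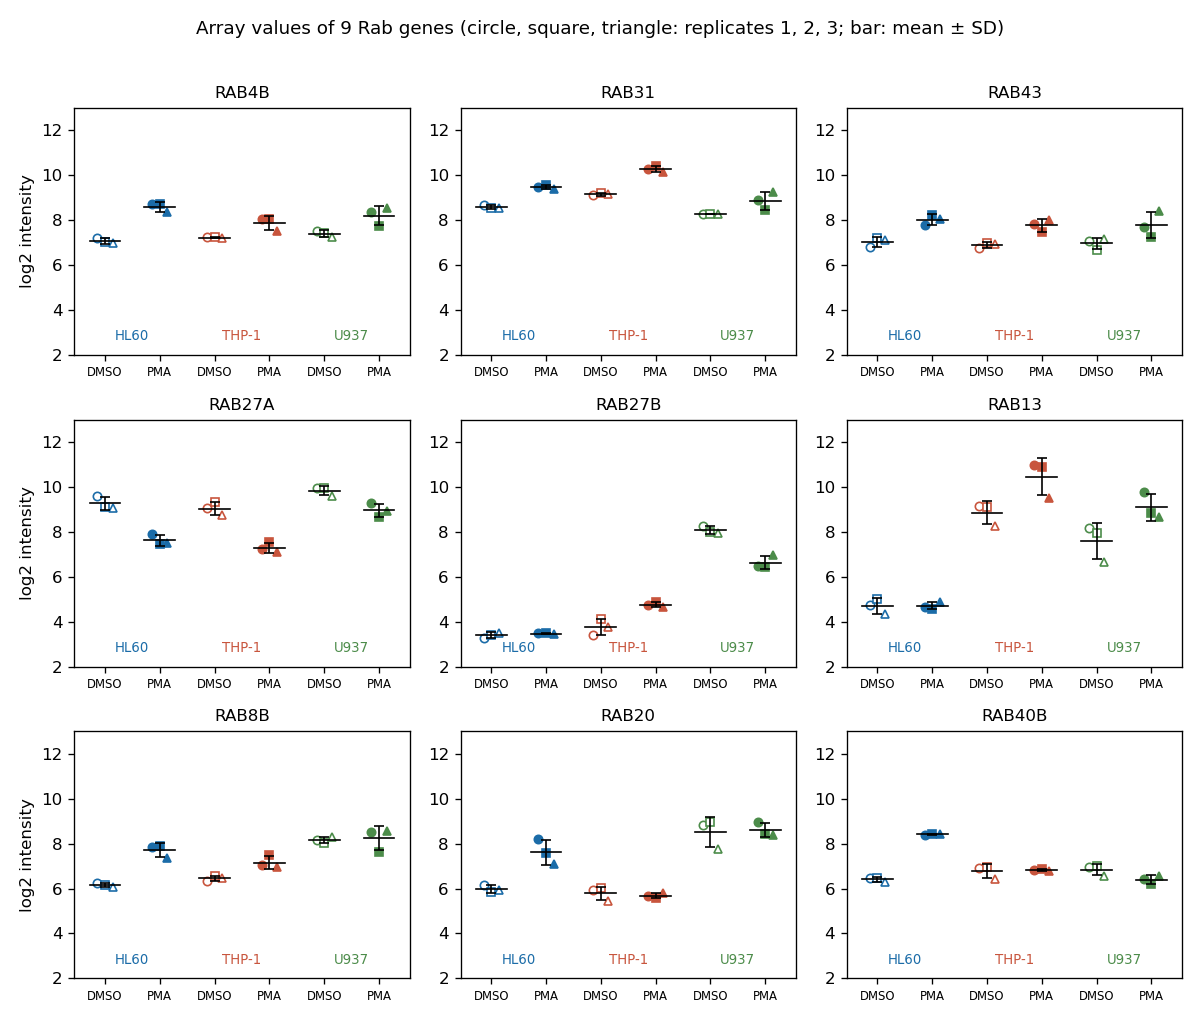
Log2 intensity of 9 Rab genes on each of 18 arrays, by line and agent, with open symbols for DMSO, filled symbols for PMA, 1 symbol shape per replicate number and black bars for the mean ± SD of 3 arrays. RAB4B, RAB31 and RAB43 are higher and RAB27A lower with PMA on every array of each line, while RAB27B, RAB13, RAB8B, RAB20 and RAB40B differ by line.

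Rabs of regulated secretion and lysosome-related organelles (11 genes) had 3 lower calls in HL60, 2 in THP-1 and 3 in U937, and a single higher call, RAB27B in THP-1. These are 8 of the 12 lower calls of Rab genes over the 3 lines and come from 5 genes, RAB27A counting in each line. In all, 27.3% of the group was called in each line, against 23%, 22.5% and 22% of all genes, where 10.7%, 13.2% and 16.5% of all genes were called lower. With the replicate block the lower calls of the group were 4, 2 and 4, of 6, 6 and 10 over all 58 Rab genes, beside 2591, 3358 and 4141 of all 16267 genes. Both rescalings gave 4, 2 and 3, of 4, 3 and 6 over the Rab genes. RAB27A, which docks secretory granules, cytotoxic granules and melanosomes at the plasma membrane, fell in all 3 lines. HL60 values were 9.60, 9.12 and 9.07 with DMSO and 7.92, 7.47 and 7.49 with PMA. THP-1 values were 9.06, 9.32 and 8.73 against 7.25, 7.54 and 7.10, and U937 values 9.95, 9.95 and 9.61 against 9.28, 8.67 and 8.91. Every PMA array was lower than every DMSO array of its line. It fell by 1.64 in HL60 (3.12 fold, adjusted p 1.76e-05), by 1.74 in THP-1 (3.34 fold, adjusted p 1.39e-05) and by 0.89 in U937 (1.85 fold, adjusted p 0.00634), each with an SE of 0.22. Without both U937 arrays numbered 2 the U937 change was -0.69 (adjusted p 0.0807). In each line 11 of its 12 probe sets were lower with PMA.

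RAB27B, its closest relative, had another pattern. THP-1 values were low, 3.42, 4.13 and 3.75 with DMSO and 4.74, 4.87 and 4.64 with PMA, and did not overlap. U937 values were 8.28, 7.99 and 7.94 with DMSO and 6.49, 6.44 and 6.97 with PMA, all PMA arrays being lower. HL60 values stayed between 3.25 and 3.51 with either agent (3.25, 3.42 and 3.51 with DMSO, 3.50, 3.47 and 3.44 with PMA). The change was 0.99 ± 0.19 (SE) in THP-1 (adjusted p 0.000941) and -1.43 ± 0.19, or 2.7 fold lower, in U937 (adjusted p 3.07e-05). Of its 8 probe sets 4 lay above the 30th percentile, all 8 were higher in THP-1 and all 8 lower in U937.

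The 4 genes of the RAB3 subfamily control exocytosis of granules and vesicles. RAB3D, of granules in blood and exocrine cells, fell in HL60, from 7.09, 7.43 and 8.02 with DMSO to 5.82, 6.76 and 6.58 with PMA, a change of -1.13 ± 0.30 (SE), or 2.18 fold lower (adjusted p 0.00957). Its values were 7.56, 7.32 and 7.54 against 7.03, 6.74 and 7.24 in THP-1, and 7.78, 7.67 and 7.9999 against 7.39, 7.01 and 8.22 in U937. The groups did not overlap in HL60 and THP-1, though only HL60 was called. The HL60 call was lost without DMSO array 3 or PMA array 1 (adjusted p 0.0604 to 0.0629). RAB3C fell in THP-1, from 5.09, 5.17 and 4.47 to 3.87, 3.66 and 3.69, a change of -1.17 ± 0.27 (SE, adjusted p 0.004). All of these values are low, at or below the 30th percentile of probe sets, so no fold is given. In U937 it fell from 5.62, 5.42 and 4.70 to 4.70, 3.90 and 4.20, by 0.98 (adjusted p 0.0136), where the groups met at 4.70. That U937 call was lost without DMSO array 1 or either array numbered 2 (adjusted p 0.0585 to 0.0853), without both arrays numbered 2 (0.17), with probe sets above the 30th percentile (0.0501) and with the median of the probe sets (0.142). HL60 values of RAB3C were 4.73, 4.61 and 4.05 with DMSO and 4.63, 4.67 and 4.23 with PMA. RAB3A and RAB3B differed by -0.01 to 0.47 and were not called. RAB3A in HL60 (0.47, adjusted p 0.128) was called with the replicate block (0.0435), with quantile normalization (0.0497), with probe sets above the 30th percentile (0.0264), with the arrays of that line alone (0.0485) and without both U937 arrays numbered 2 (0.0139).

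RAB37, of mast cell and neutrophil granules, fell in HL60 by 0.86 (adjusted p 0.00125), from 5.97 ± 0.03 to 5.12 ± 0.23 (SD, n = 3), and the adjusted p was 0.0612 with the median of the probe sets. RAB32, a Rab of melanosomes and lysosome-related organelles, differed by -1.44 in HL60 (adjusted p 0.0513), -0.05 in THP-1 (0.96) and -1.22 in U937 (0.109). HL60 values were 8.84, 7.64 and 7.32 with DMSO and 7.21, 6.30 and 5.95 with PMA, and same-numbered arrays ranked alike. With the replicate block the adjusted p was 1.99e-05 in HL60 and 0.000113 in U937, and both rescalings called it in HL60 (0.0385 and 0.0348). RAB26, RAB29 and RAB38 differed by -0.17 to 0.61 and were not called. The replicate block called RAB38 in HL60 (0.0168), and both rescalings called RAB29 in THP-1 (0.0206 and 0.0329) and RAB26 in U937 (0.0348 and 0.0347).

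In the remaining group of 8, RAB40B and RAB42 rose in HL60, 0 were called in THP-1 by limma (2 at an unadjusted p under 0.05, as were 5272 of all 16267 genes), and RAB23 and RAB28 fell in U937. That is 25%, 0% and 25% called, against 23%, 22.5% and 22% of all genes. RAB40B, which joins a SOCS box to a Rab fold and serves ubiquitin ligation, had the largest rise of the family. HL60 values were 6.48, 6.48 and 6.28 with DMSO and 8.39, 8.45 and 8.42 with PMA, a change of 2.01 ± 0.18 (SE), or 4.02 fold (adjusted p 1.23e-07). THP-1 values were 6.92, 6.98 and 6.42 against 6.83, 6.89 and 6.78, and U937 values 6.96, 7.01 and 6.57 against 6.43, 6.20 and 6.58, and both overlapped. RAB42 rose in HL60 by 0.55 (adjusted p 0.0285), but was not called under quantile normalization (0.101), with centred arrays (0.0848), with the median of the probe sets (0.509) or without HL60 DMSO array 1 or 3 or PMA array 1 or 3 (0.0761 to 0.138). Of its 4 probe sets only 1 lay above the 30th percentile, so the fit with such probe sets left RAB42 out. RAB23, a Rab of the cilium, fell in U937 by 0.99 (adjusted p 0.0275), and the call was lost without U937 DMSO array 1 or 2 or PMA array 2 (0.106 to 0.131) and without both arrays numbered 2 (0.334). RAB28, also a ciliary Rab, fell there by 0.83 (adjusted p 0.0311), and that call was lost without any of the 3 DMSO arrays or PMA array 1 or 2 (0.0615 to 0.127), without both arrays numbered 2 (0.206), with the arrays of that line alone (0.0641) and with probe sets above the 30th percentile (0.0564). RAB40A, RAB40C, RAB24 and RAB9BP1 differed by -0.42 to 0.33, and the replicate block called RAB24 in HL60 (-0.42, adjusted p 0.0266).

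The difference of the PMA effect between lines was tested directly. Between HL60 and THP-1, 4 Rab genes were called, 2 in each direction (6.9%, against 7.78% of all genes, 4.88% higher and 2.9% lower). Between HL60 and U937 also 4 were called, all higher in HL60 (6.9%, against 7.73%, 5.98% higher and 1.75% lower). Quantile normalization gave 5 higher and 2 lower there and centred arrays 3 and 2, the lower ones being RAB27A (-1.02 and -1.04, adjusted p 0.0115 and 0.0137) and RAB37 (-0.83 and -0.80, 0.0252 and 0.0333). Over all genes the rescalings gave 1073 higher and 788 lower, and 924 and 797. Between THP-1 and U937 RAB27B alone was called (1.72%, against 4.76%, 3.14% higher and 1.62% lower). RAB27A was also called lower there under both rescalings (-0.997 and -1.004, adjusted p 0.0175 and 0.0217) and with the replicate block (0.021). Between HL60 and THP-1 the rescalings gave 8 higher and 2 lower, and 6 and 2, where all genes gave 1315 and 1008, and 1158 and 1003. Under the replicate block the counts were 16 (27.6%, against 15.5% of all genes), 12 (20.7%, against 16.4%) and 4 (6.9%, against 10.1%). The PMA effect on RAB40B was higher in HL60 than in THP-1 by 1.94 ± 0.25 (SE, adjusted p 7.16e-05) and than in U937 by 2.45 ± 0.25 (adjusted p 5.2e-06). The effect on RAB20 was higher in HL60 than in THP-1 by 1.77 (adjusted p 0.0139) and than in U937 by 1.57 (adjusted p 0.0283). That last call was lost without HL60 DMSO array 2 or 3, HL60 PMA array 1 or 2, U937 DMSO array 1 or 2 or U937 PMA array 2 (adjusted p 0.0568 to 0.0879). It was also lost under both rescalings (0.0572 and 0.0635), with the median of the probe sets (0.121), with the arrays of both lines alone (0.0579) and without both U937 arrays numbered 2 (0.15). The effect on RAB8B was higher in HL60 than in U937 by 1.46 (adjusted p 0.00829). RAB27B differed between each pair of lines, by 2.42 ± 0.27 (SE) between THP-1 and U937 (adjusted p 3.74e-05), 1.51 between HL60 and U937 (0.00145, and 0.0729 with the median of the probe sets) and -0.91 between HL60 and THP-1 (0.0465), the last lost on leaving out any of 14 of the 18 arrays (0.0536 to 0.148) and with probe sets above the 30th percentile (0.238). The effect on RAB37 was lower in HL60 than in THP-1 by 0.91 (adjusted p 0.0297). That call was lost on leaving out any of 9 arrays (0.0528 to 0.0947), with probe sets above the 30th percentile (0.233) and with the median of the probe sets (0.507). RAB13, with called rises in THP-1 and U937 and a difference of 0.01 in HL60, was not called for its contrasts between lines (HL60 minus THP-1 -1.59, adjusted p 0.134, and 0.00301 with the replicate block, HL60 minus U937 -1.48, 0.171 and 0.00497).

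**Figure D3:**
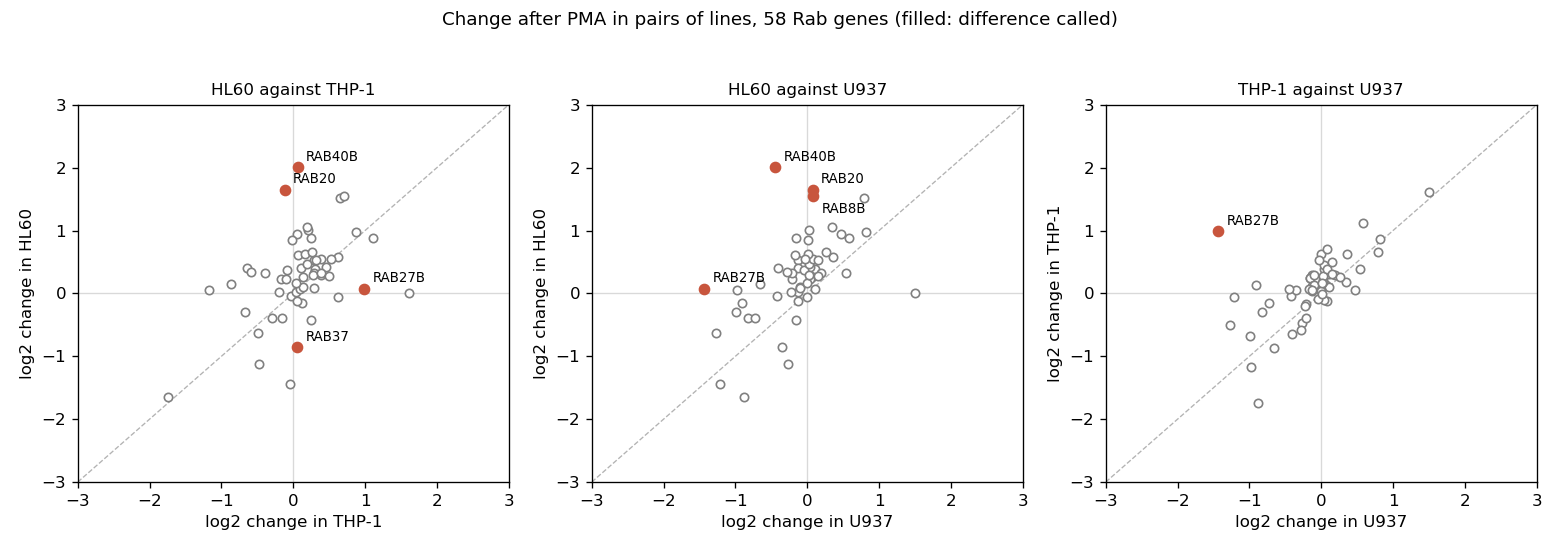
Log2 change of 58 Rab genes after PMA in 1 line (x axis) against another (y axis), for 3 pairs of lines; the dashed line marks equal change. Filled, named points are genes whose difference of effect was called: RAB40B, RAB20, RAB27B and RAB37 for HL60 against THP-1, RAB40B, RAB20, RAB8B and RAB27B for HL60 against U937, and RAB27B for THP-1 against U937.

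Genes of the same subfamily are set side by side here, and the difference between paralogs was not tested. RAB4B rose in every line while RAB4A differed by -0.15, 0.13 and -0.91 in HL60, THP-1 and U937. RAB8B differed by 1.55, 0.71 and 0.08, and RAB8A by -0.39, -0.15 and -0.72. RAB27A differed by -1.64, -1.74 and -0.89, and RAB27B by 0.07, 0.99 and -1.43. RAB40B differed by 2.01, 0.06 and -0.45, RAB40A by 0.30, 0.27 and 0.02, and RAB40C by 0.33, -0.39 and -0.21. RAB33B, beside RAB33A, differed by 0.02, -0.19 and -0.22, and RAB2A, beside RAB2B, by 0.40, 0.11 and -0.13. RAB11A and RAB11B differed by 0.53, 0.29 and -0.12 and by 0.29, 0.38 and 0.03. RAB4A, RAB8A, RAB40A, RAB40C, RAB33B, RAB2A, RAB11A and RAB11B were called in no line.

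The proteins that run the Rab cycle moved in both directions. Of 30 measured exchange factors (of 34 listed), 7 rose and 7 fell in HL60, 3 rose and 4 fell in THP-1, and 1 rose and 6 fell in U937, where quantile normalization gave 8 and 5 and centred arrays 8 and 6. The shares called were 46.7%, 23.3% and 23.3%, against 23%, 22.5% and 22% of all genes. In THP-1 the rescalings gave 7 and 5, and 8 and 5. For this list and those below, the rescaled counts of all genes are those given above. RIN2, an exchange factor of RAB5, rose by 3.64 ± 0.20 (SE) in THP-1 (4.96 ± 0.06 to 8.60 ± 0.04, SD, n = 3, adjusted p 1.21e-09) and by 1.60 in U937 (adjusted p 1.62e-05). DENND4A, an exchange factor of RAB10, fell by 2.40 in HL60 (adjusted p 1.91e-06) and by 2.36 in THP-1 (4e-06). ANKRD27, an exchange factor of RAB21 that also binds RAB32 and RAB38, fell by 2.11 in HL60 (1.03e-05) and 1.85 in U937 (7.47e-05), DENND1A, of RAB35, by 1.39 in THP-1 (0.000245) and 1.96 in U937 (9.35e-06). DENND2D rose by 1.99 in HL60 (2.96e-06). RIN2, DENND4A, ANKRD27 and DENND1A were called in the remaining line as well. RIN2 rose in HL60 (1.55, adjusted p 1.17e-05) and DENND1A fell there (-1.63, 3.58e-05). DENND4A fell in U937 (-1.10, 0.0052) and ANKRD27 in THP-1 (-0.83, 0.0337). DENND2D was not called in THP-1 (-0.51, 0.126) or U937 (-0.19, 0.718), though both rescalings called it lower in THP-1 (0.0451 and 0.0426).

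Of 27 measured GTPase activating proteins (of 32), 5 rose and 0 fell in HL60, 1 rose and 1 fell in THP-1, and 2 rose and 3 fell in U937, which is 18.5%, 7.41% and 18.5% against 23%, 22.5% and 22% of all genes. Both rescalings gave 8 and 1, 6 and 2, and 6 and 3. By limma's unadjusted p under 0.05 there were 9, 7 and 9, beside 5150, 5272 and 4929 of all 16267 genes. TBC1D8, USP6NL and RABGAP1L rose in HL60 by 1.52, 1.47 and 1.00 (adjusted p 0.0011, 0.00118 and 0.00154). RABGAP1L rose in U937 too (0.81, 0.00886). USP6NL, which acts on RAB5, fell in U937 by 1.25 (0.005), as did TBC1D4, which acts on the Rabs of glucose transporter vesicles, by 1.67 (0.000426), while TBC1D2, which acts on RAB7, rose by 1.49 (0.000473). TBC1D4 went the other way in HL60, where it rose by 0.90 (0.0309). In THP-1 TBC1D4 differed by 0.79 (0.0625) and was called under both rescalings (0.0122 and 0.00829) and with the replicate block (0.00666). In THP-1 TBC1D2B fell by 0.83 (0.031, lost without DMSO array 1 or 2 or PMA array 1 or 2, 0.0743 to 0.15) and TBC1D17 rose by 0.54 (0.0457, lost on leaving out any of 16 arrays, 0.0514 to 0.18). TBC1D2B also fell in U937 (-1.07, 0.00638), and TBC1D17 also rose in HL60 (0.79, 0.00369).

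Of 49 measured effectors (of 55), 7 rose and 6 fell in HL60, and 6 rose and 8 fell in both THP-1 and U937, which is 26.5%, 28.6% and 28.6% against 23%, 22.5% and 22% of all genes. In U937 quantile normalization gave 14 and 8 and centred arrays 15 and 8, and in HL60 both gave 7 and 9, while THP-1 had 10 and 10, and 11 and 8. RAB11FIP4, a partner of RAB11, rose by 2.39 ± 0.22 (SE), 1.53 and 1.18 (adjusted p 2.21e-07, 6.1e-05 and 0.000758). EHBP1, which binds RAB8 and RAB10, fell by 1.68 in HL60 (4.99e-05) and 1.30 in U937 (0.000852), and APPL1, of early endosomes, by 1.57 in HL60 (0.000132). In THP-1 EXOC6, a subunit of the exocyst, and OCRL, a lipid phosphatase, fell by 1.41 each (0.00262 and 0.00448). OPTN, which binds RAB8, rose by 1.39 in U937 (0.000417). EHBP1 (-1.18, adjusted p 0.00179) and APPL1 (-0.86, 0.0188) also fell in THP-1. APPL1 (-0.80, 0.0299) and EXOC6 (-1.17, 0.00999) fell in U937 too, and OPTN rose in THP-1 (1.06, 0.00374). In HL60 EXOC6 (-0.06) and OPTN (0.38) were not called. With the values as deposited OCRL was called only in THP-1. In HL60 it differed by -0.72 (adjusted p 0.145) and was called under both rescalings (0.0422 and 0.0421) and with the replicate block (0.0348). Of 8 measured prenylation, escort and GDI genes (of 10), 2 rose and 1 fell in HL60, 1 rose and 1 fell in THP-1, and 1 rose and 2 fell in U937 (3 and 1 under both rescalings), which is 37.5%, 25% and 37.5% against the same shares of all genes. CHML, the second escort protein of Rab prenylation, fell by 2.72 ± 0.27 (SE) in HL60 (7.95 ± 0.22 to 5.22 ± 0.23, SD, n = 3, adjusted p 4.48e-07), by 1.28 in THP-1 (0.00183) and by 2.34 in U937 (6.13e-06). RABAC1, a prenylated Rab acceptor, rose by 1.02 in HL60 (0.0324, lost without DMSO array 2 or 3 or PMA array 1, 0.0669 to 0.162) and 1.14 in THP-1 (0.0175, lost without DMSO array 3 or PMA array 1 or 2, 0.0593 to 0.117, and with the arrays of that line alone, 0.058). ARL6IP5, of the same family, rose by 1.65 in HL60 (0.0012) and 1.07 in U937 (0.0294, lost without DMSO array 2 or 3 or PMA array 1 or 3, 0.0654 to 0.135), and GDI2 fell in U937 by 0.67 (0.0493), which was lost on leaving out any of 14 arrays (0.0505 to 0.193), without both arrays numbered 2 (0.391) and under both rescalings (0.0623 and 0.117). The lists do not show whether a Rab is loaded with GTP.

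**Figure D4:**
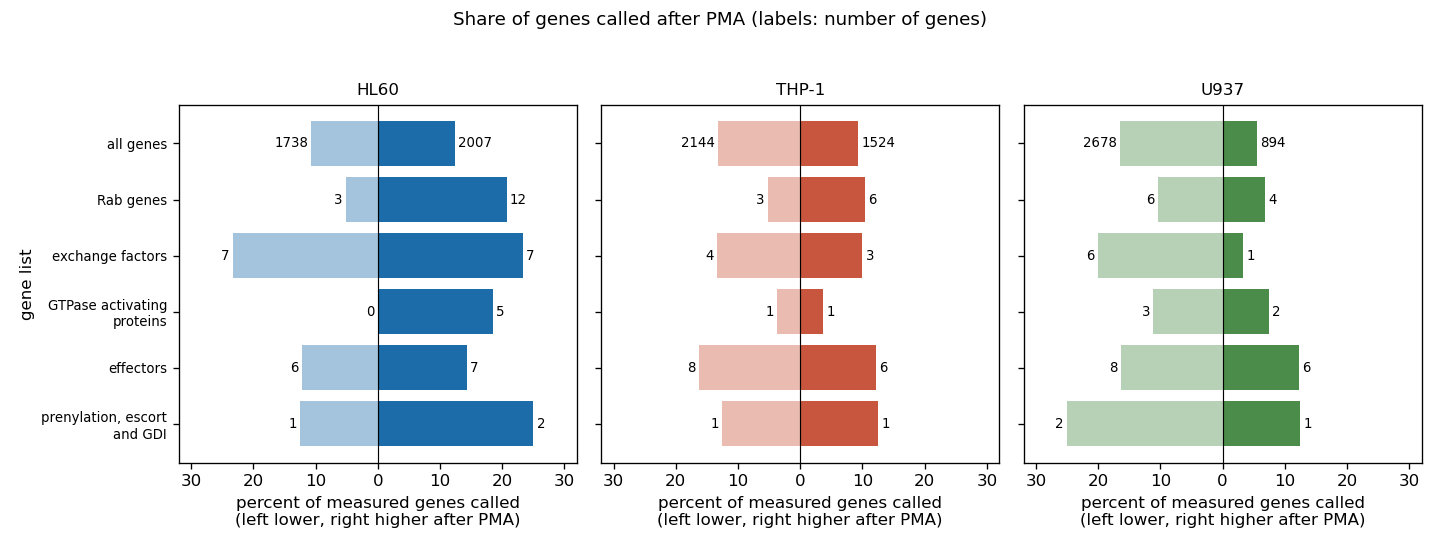
Percent of measured genes called higher (right) and lower (left) after PMA in HL60, THP-1 and U937, for all 16267 genes, the 58 Rab genes and 4 lists of Rab regulators; bar labels give the number of genes. Exchange factors in HL60 have 7 higher and 7 lower of 30, and GTPase activating proteins have 5 higher and 0 lower of 27 (1 lower under both rescalings).

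Exon usage set each probe set against the rest of its gene, over 430 probe sets in 41 Rab genes. By limma's diffSplice 10 Rab probe sets were called in HL60 (2.78% of all probe sets were), 2 in THP-1 (1.5%) and 1 in U937 (1.01%), where a call needs an adjusted p below 0.05 and 1 log2 unit or more. They lay in 5 genes in HL60 (17.3% of all genes tested had one), 2 in THP-1 (11.6%) and 1 in U937 (8.49%). A second test, limma on the splicing index (probe set minus gene mean), called 8 of them in HL60, 1 in THP-1 and none in U937, beside 2.36%, 1.14% and 0.722% of all probe sets called by both tests. With the replicate block diffSplice called 23, 6 and 5. The share over all probe sets was not counted for that fit, so these numbers are not read as a trait of the Rab genes.

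In RAB27A, probe set 3625303 stood apart from the rest of the gene in HL60 and THP-1. Its mean was 11.10 with DMSO and 11.45 with PMA in HL60, and 11.20 and 11.36 in THP-1. The other 11 probe sets all had negative changes in those lines, from -3.71 to -0.83 in HL60 and from -2.60 to -1.15 in THP-1. Its difference exceeded that of the others by 1.99 in THP-1 (diffSplice adjusted p 0.000102, splicing index adjusted p 0.0171) and by 1.97 in HL60 (4.81e-05 and 0.00973). The THP-1 indices were 1.22, 0.86 and 2.11 with DMSO and 3.31, 2.75 and 3.51 with PMA, and they did not overlap. In U937 its difference exceeded that of the others by 0.93, which was not called (diffSplice adjusted p 0.397, splicing index 0.417), and the indices overlapped.

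RAB40B held 5 of the 10 HL60 probe sets. Probe set 3775213 had a difference of 4.50, which was 2.85 more than the others (adjusted p 1.66e-05, splicing index 0.0247), and its index moved from -1.86, -3.22 and -3.93 to 0.39, -0.77 and -0.86. Its level was 3.79 with DMSO, below the 30th percentile, and 8.29 with PMA, while its group means in the other lines were 4.76 to 5.26. It thus entered the test through HL60 with PMA, where it is high, and the test gives no independent support. At the 50th percentile neither it nor probe set 3775212, at 5.01 with DMSO and 8.84 with PMA, entered. Probe set 3775212 differed by 2.10 (0.00373), but not by the splicing index (0.0725), and was not called without DMSO array 2 or 3 or PMA array 1 (0.0527 to 0.0969). Probe set 3775233 differed by 0.09 at a level of 13.47 with DMSO and 13.56 with PMA, close to the highest deposited value of 14.44, and relative to the others by -2.01 (0.00644, splicing index 9.82e-05). It was not called without PMA array 1 (0.0604) or with probe sets above the 50th percentile (-0.59, 0.636). How far the top of the scale limits that probe set was not tested. RAB26 probe set 3644518 differed by -1.17 in THP-1 (0.0253) and -1.32 in U937 (0.00853), and the splicing index called neither (0.173 and 0.138). The THP-1 call was lost without any of the 3 DMSO arrays or PMA array 1 or 2 (0.053 to 0.265). The U937 call was lost without DMSO array 1 (0.211), PMA array 2 (0.0869) or both arrays numbered 2 (0.0977).

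**Figure D5:**
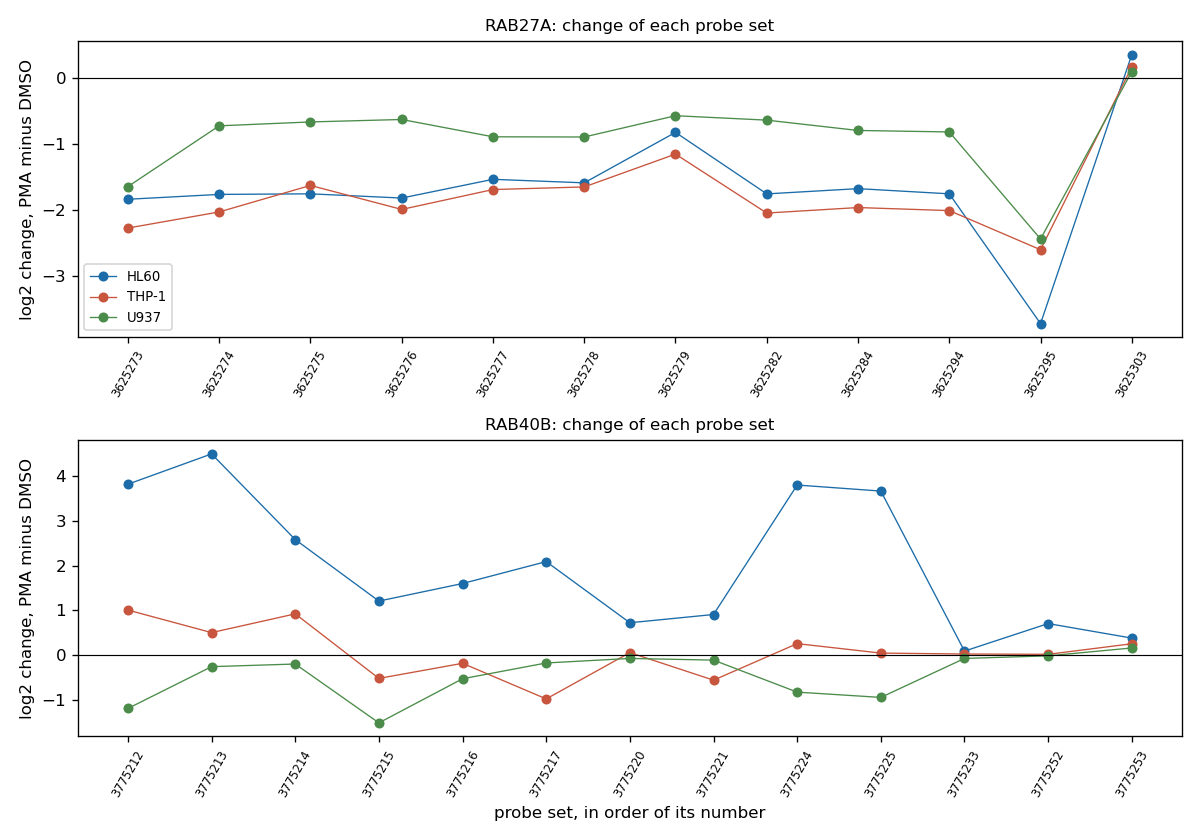
Log2 change after PMA of each probe set of RAB27A (12) and RAB40B (13) in 3 lines, in order of probe-set number. RAB27A probe set 3625303 is the only one above 0, at 0.35 in HL60, and RAB40B probe sets differ from 0.09 to 4.50 in HL60.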

How the data were processed

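Per the labels' protocols, total RNA was extracted with TRIzol and biotin-labelled for exon arrays. Per the submitters' processing notes, the authors used Affymetrix Expression Console, whose version is not stated. The deposited values are log2 probe-set intensities from 0.58 to 14.44. The sources used here do not give the background correction, normalization or summary. An array has no depth, and 3 arrays per group limit the precision (median SE 0.249 log2 for the PMA effect on a Rab gene).

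Probe sets with a single symbol were averaged per gene, for genes with at least 3. In the platform annotation 261273 probe sets have 1 symbol, 9155 several and 16901 none. Symbols were updated through RefSeq (GRCh38.p14, names only), 2 of them among the Rabs. Compartment groups of the Rab genes came from a list made for this report, and a gene not on it went to the remaining group. Counts per group rest on that assignment. limma 3.58.1 in R 4.3.3 (data.table, version 1.17.8) fitted 6 group means on all 18 arrays, and p-values were adjusted over 16267 genes. Exon usage used diffSplice on genes with at least 5 probe sets above the 30th percentile. Scripts were tested on simulated data. The members and lists were chosen with earlier results of these data known.

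Array values are given for Rab genes called with a change or a difference between lines of at least 1 log2 unit, or called in the same direction in 3 lines. From each regulator list the 3 called genes with the largest change per line are named, and for exon usage the 3 probe sets per line with the largest difference and splicing indices that do not overlap between agents. Calls of these regulators in other lines are given too, but only the 34 ranked calls were followed through all alternatives. The lists were exchange factors, GTPase activating proteins, effectors and prenylation genes. Of the other marker lists, T and NK cell, erythroid, and epithelial and fibroblast genes had 0 calls after PMA in any line by limma (0 also at an unadjusted p under 0.05), with the values as deposited. Myeloid markers had 3 higher and 3 lower in HL60 and in THP-1, and 3 higher in U937, and 3 of 5 B cell markers were measured, with 1 higher in HL60 and 1 lower in U937. Both rescalings called 1 erythroid gene higher in U937. Centred arrays also called 1 T and NK cell gene higher in U937 and 1 epithelial and fibroblast gene higher in THP-1.

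Replicate numbers were checked for pairing from the data, since the labels do not describe them. In every line the DMSO and PMA arrays of one number deviated together (r of 0.79, 0.48 and 0.581 in HL60, 0.401, 0.641 and 0.653 in THP-1, 0.454, 0.285 and 0.521 in U937), so the fit with the replicate block is given for each Rab gene where it changes a call for PMA against DMSO, and mostly as counts for differences between lines. The highest r with another number exceeded that of the same number for THP-1 number 1 (0.436 against 0.401) and U937 number 2 (0.329 against 0.285). Alternatives were the median of probe sets, quantile normalization, centred arrays, filters, fits of single lines, the replicate block and omission of each array.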

Additional observations from a re-analysis of the deposited data

Results flagged for a closer look

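The effect of PMA differed between lines for 5 Rab genes, by limma's test of the difference itself. The shares called were 6.9%, 6.9% and 1.72% for HL60 minus THP-1, HL60 minus U937 and THP-1 minus U937. Those of all genes were 7.78%, 7.73% and 4.76%. RAB40B differed by 1.94 between HL60 and THP-1 and by 2.45 between HL60 and U937, and RAB20 by 1.77 and 1.57 for the same pairs. RAB8B differed by 1.46 between HL60 and U937. RAB37 differed by -0.91 between HL60 and THP-1. RAB27B differed by -0.91 between HL60 and THP-1, by 1.51 between HL60 and U937 and by 2.42 between THP-1 and U937, and is the gene that rose in THP-1 and fell in U937. All its values in HL60 and THP-1 lay below the 30th percentile of all probe sets. Of 26 alternatives, 15 lost the RAB27B call for HL60 minus THP-1, 12 the RAB20 call for HL60 minus U937 and 11 the RAB37 call. The RAB27B call for HL60 minus U937 was lost in 1, and the remaining calls in none.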

How the results depend on the processing

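Of 43 Rab calls, 34 of them for PMA against DMSO, 19 (14) were kept under each of up to 26 alternatives, as were 28 of the 34 ranked calls of named regulators, and 0 changed direction. With the replicate block the Rab counts were 25 in HL60 and 15 in THP-1, 16, 12 and 4 for HL60 minus THP-1, HL60 minus U937 and THP-1 minus U937, 38 regulators in THP-1, and 23, 6 and 5 probe sets for exon usage. Quantile normalization gave 10, 7 and 2 Rab genes for the differences, 42 and 48 regulators in THP-1 and U937, and median Rab changes of 0.27 in HL60 and 0.22 in THP-1. Centred arrays gave 14 Rab genes in THP-1, 8 and 2 for HL60 minus THP-1 and THP-1 minus U937, 42 and 50 regulators in THP-1 and U937, and medians of 0.26 and 0.22. HL60 minus THP-1 gave 2 with probe sets above the 30th percentile, 9 with the arrays of both lines alone and 9 without both U937 arrays numbered 2, which gave 38 regulators in THP-1. The median of probe sets gave 2 for HL60 minus U937. Exon usage gave 5 and 1 probe sets above the 50th percentile in HL60 and THP-1, and in U937 0 by the splicing index and 0 without the arrays numbered 2. The cause was not tested. Calls over all genes also moved with the block and the rescalings, as given above, and were not counted for exon usage with the block.

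Leaving out each array in turn gave 12 to 19 Rab genes in HL60, 5 to 10 in THP-1 and 5 to 11 in U937, 2 to 10, 3 to 8 and 1 to 2 for the differences, and 26 to 47, 18 to 37 and 25 to 46 regulators. Median Rab changes ran from 0.23 to 0.31, 0.01 to 0.20 and -0.21 to 0.17. Probe sets called for exon usage numbered 7 to 13, 1 to 2 and 0 to 2.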
